A study of Homo sapiens with 12 samples.

Results

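The guidance genes described here encode ephrins, semaphorins, slits and netrins, and the Eph, plexin, ROBO and UNC5 receptors that bind them. Of the 48 member genes, 21 encode receptors and 27 encode ligands. They were taken from the deposited tables by matching Ensembl identifiers to gene symbols, and all 48 were found among 58676 rows with such an identifier. Poly(A) RNA was sequenced in 12 libraries of SJSA-1, a human osteosarcoma cell line, in 6 libraries of cells carrying a scramble shRNA (shNC) and 6 libraries of cells carrying one RUNX2 shRNA (sh1). Neither the age of the cultures nor any treatment besides the stably expressed shRNA was given in the labels, and sh1 is a single hairpin in a stable line set against a single control line. Nothing in the labels says that the 6 libraries of a group came from separate cultures, so the p-values rest on library-to-library spread, part or all of which could be technical. The question was how the guidance genes, and the ligands against the receptors, differed between sh1 and shNC.

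Guidance genes are best known for steering growing axons, and the same proteins act in blood vessels, bone and tumour cells. Ephrins are held on the cell surface and bind Eph receptor tyrosine kinases on neighbouring cells, with signals passing into both cells. Most secreted class 3 semaphorins bind neuropilins, which pair with plexins, while membrane semaphorins mostly bind plexins directly. Slits bind ROBO receptors, and netrins bind DCC, neogenin and UNC5 receptors. In bone, ephrin-B ligands and EphB4, SEMA3A with neuropilin-1, and SEMA4D with plexin-B1 carry signals between osteoblasts and osteoclasts. RUNX2 itself is the transcription factor that directs osteoblast formation.

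RUNX2 was checked first. Its TMM-normalized CPM (counts scaled to library size) ranged from 35.5 to 46.15 in shNC and from 21.6 to 27.4 in sh1, without overlap. It fell by 0.69 on the log2 scale (SE 0.076, adjusted p = 4.6e-06 in edgeR's quasi-likelihood test), and an exact two-sided permutation test over the 12 libraries gave p = 0.0022, the smallest it can give. Total counts ran from 15328312 to 19992974 in shNC and from 11239638 to 16346022 in sh1, and sh1 replicate 3 had the lowest total. That library also had 1.23% of its counts in rows without an Ensembl identifier, against 0.468% to 0.531% in the other sh1 libraries, and without it the member counts were again 17 higher and 6 lower, with UNC5B losing its call and SEMA3B gaining one. Of 11 osteoblast and mesenchymal markers, 6 reached a mean of 1 FPKM (counts scaled by transcript length and library size). SPARC, a matrix protein of bone, was the most abundant of them, IBSP was listed at 0 in every library, and SP7, ALPL and BGLAP had at most 5 counts in any library. The summed osteoblast and mesenchymal marker level ranged from 551 to 589 FPKM in shNC and from 700 to 810 FPKM in sh1. Of the 11, 3 were called higher and 1 lower, and the lower one was RUNX2 itself. Among all tested genes, 12.8% were called higher and 13.3% lower. The neuronal list was led by NEFL and summed to 13.5 to 16.1 FPKM in shNC and 11.8 to 14.4 in sh1, with 0 of 8 genes called by edgeR. The endothelial list was led by EGFL7 and summed to 3.35 to 5.25 FPKM in shNC and 4.63 to 5.75 in sh1, with 0 of 7 called. The epithelial list was led by KRT18 and summed to 80.1 to 94.4 FPKM in shNC and 87.4 to 115 in sh1, with CDH1 listed at 0 in every library, KRT8 called higher and CLDN4 called lower. The leukocyte list was led by LYZ and stayed below 0.5 FPKM in sum in every library. The part of these lists in the results was not tested, and in bulk RNA fewer cells of a kind and less RNA per cell cannot be told apart.

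Most guidance genes were expressed in both groups. By mean FPKM over the 12 libraries, 8 members were at 10 or above, 22 between 1 and 10, and 18 below 1. EPHA2, a receptor tyrosine kinase for ephrin-A ligands, was the most abundant member at 102 ± 19.3 FPKM in shNC and 124 ± 13.4 in sh1 (SD, n = 6). Next came the semaphorin receptor PLXNB2 at 42.8 ± 6.67 and 53.3 ± 7.47 FPKM and the glycolipid-anchored semaphorin SEMA7A at 47.4 ± 5.19 and 53.9 ± 5.38 FPKM. The ranges of PLXNB2 and SEMA7A overlapped each other in both groups. PLXNA1, a co-receptor with neuropilins, followed at 36.3 ± 5.95 and 41.0 ± 4.29 FPKM. The most abundant secreted semaphorin was SEMA3C at 12.5 ± 0.558 and 15.9 ± 1.17 FPKM, and the most abundant ephrin by the mean of all libraries was EFNB1 at 8.81 ± 0.928 and 11.9 ± 0.862 FPKM, with EFNB2 beside it at 9.43 ± 1.04 and 10.1 ± 0.893. EPHA3, EPHA5, EPHA7, SEMA3E and SLIT3 were near the floor, with at most 15 counts in any library, and were not tested.

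**Figure D1:**
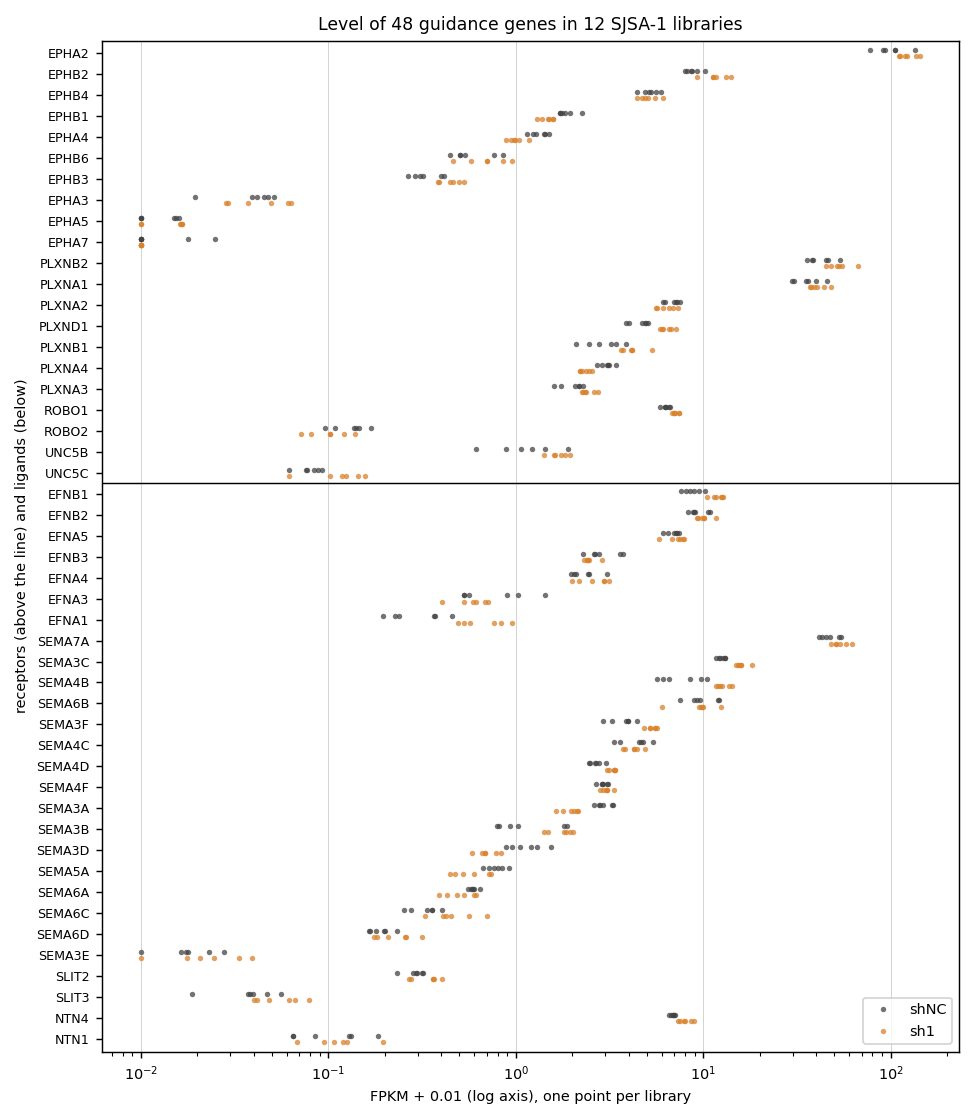
Level of each of the 48 guidance genes as FPKM + 0.01 on a log axis, with one point per library, receptors above the line and ligands below it (shNC dark, sh1 orange, 6 libraries each). EPHA2 lies furthest right among the receptors and SEMA7A among the ligands, and the 5 genes that were not tested lie at the left.

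Of 43 members tested, 17 rose, 6 fell and 20 were not called in sh1 against shNC (adjusted p under 0.05, edgeR). That is 39.5% higher and 13.95% lower, where 12.8% of all 16489 tested genes were called higher and 13.3% lower. The members were chosen with earlier results of these data known, so their shares are not independent of those results. The median log2 fold change was 0.17 over the tested members and -0.0035 over all tested genes. In 7 members all sh1 libraries lay above all shNC libraries, against 5.84% of all genes, and in 4 all lay below, against 6.08%. EFNA1 was the only member called higher by at least 2-fold, and 1.20% of all genes were called higher by that much. The count of 17 depended on single libraries: it was 11 without shNC replicate 1, 2 or 5 or sh1 replicate 1, and 20 without shNC replicate 4. The count of 6 stayed at 6 or 7 whichever library was left out.

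Both receptors and ligands held more genes that rose than fell. Among the 18 receptors tested, 9 rose, 3 fell and 6 were not called, with a median log2 fold change of 0.25. Among the 25 ligands tested, 8 rose, 3 fell and 14 were not called, with a median log2 fold change of 0.15. The groups did not overlap for 8 of the 25 ligands, 6 higher and 2 lower, and for 3 of the 18 receptors, 1 higher and 2 lower. Over all tested genes, 5.84% were higher and 6.08% lower without overlap. Summed over all 27 ligands, FPKM was 137 ± 11.98 in shNC and 158 ± 6.52 in sh1, and the highest shNC library (151.6) lay just under the lowest sh1 library (151.9). Summed over all 21 receptors, FPKM was 226 ± 34.1 in shNC and 270 ± 28.2 in sh1, and the groups overlapped. The ratio of summed receptor to summed ligand FPKM was 1.64 ± 0.124 in shNC and 1.70 ± 0.109 in sh1 (SD, n = 6), with ranges of 1.4997 to 1.87 and 1.58 to 1.89. The spread of this ratio within a group was larger than the shift between groups. Whether receptors and ligands differed from each other in response was not tested, because genes are not replicates.

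**Figure D2:**
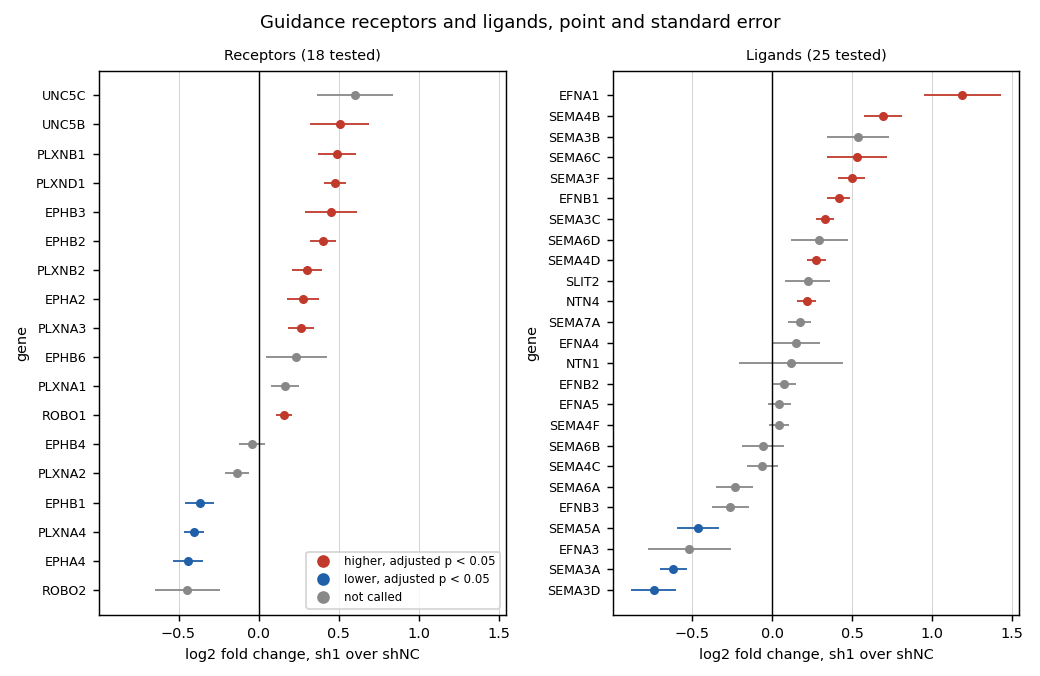
Log2 fold change of sh1 over shNC with its standard error for 18 receptors (left) and 25 ligands (right), coloured by the edgeR call at an adjusted p of 0.05. Called genes lie on both sides of 0 in both panels, 9 higher and 3 lower among receptors and 8 higher and 3 lower among ligands, with EFNA1 furthest right.

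RUNX proteins bind a short core motif, and it was looked up in member promoters because RUNX2 is the factor silenced. A RefSeq promoter, from 250 bases before the start to 50 after it on GRCh38.p14, was matched for 42 of the 48 members. The hexamers TGTGGT and TGCGGT were searched on both strands, and neither contains the other. At least 1 match was present in 8 of 42 member promoters (19.0%), in 18.8% of the promoters of tested genes and in 19.6% of all 35116 promoters in the table. Among called members a match was present in 2 of 16 that rose and in 2 of 5 that fell, and among the other members in 4 of 21. The promoters of these 4 called members are shown in the gene's own direction, 5′ to 3′, with the matches in capitals: EFNB1 (chrX:68828771-68829070, plus strand, match at base -206 from the start), EPHB1 (chr3:134795010-134795309, plus strand, base -233), PLXNB2 (chr22:50301620-50301919, minus strand, base -242) and SEMA3D (chr7:85187007-85187306, minus strand, matches at bases 32 and 41).
EFNB1: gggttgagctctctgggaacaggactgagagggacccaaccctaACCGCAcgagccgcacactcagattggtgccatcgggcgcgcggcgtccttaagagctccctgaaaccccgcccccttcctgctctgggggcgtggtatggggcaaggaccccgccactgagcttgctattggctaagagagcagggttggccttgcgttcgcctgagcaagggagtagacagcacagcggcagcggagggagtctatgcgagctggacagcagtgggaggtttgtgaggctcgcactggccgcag
EPHB1: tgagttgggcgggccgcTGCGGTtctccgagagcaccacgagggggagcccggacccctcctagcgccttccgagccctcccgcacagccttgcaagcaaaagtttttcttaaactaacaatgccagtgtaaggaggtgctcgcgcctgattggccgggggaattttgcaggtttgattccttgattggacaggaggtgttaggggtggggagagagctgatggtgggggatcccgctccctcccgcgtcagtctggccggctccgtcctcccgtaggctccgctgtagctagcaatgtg
PLXNB2: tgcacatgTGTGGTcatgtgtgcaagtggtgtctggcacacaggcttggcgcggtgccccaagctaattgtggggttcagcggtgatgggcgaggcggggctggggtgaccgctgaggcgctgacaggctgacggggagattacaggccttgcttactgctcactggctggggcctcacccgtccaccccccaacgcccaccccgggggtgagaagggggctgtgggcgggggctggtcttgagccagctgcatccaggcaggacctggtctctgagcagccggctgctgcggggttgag
SEMA3D: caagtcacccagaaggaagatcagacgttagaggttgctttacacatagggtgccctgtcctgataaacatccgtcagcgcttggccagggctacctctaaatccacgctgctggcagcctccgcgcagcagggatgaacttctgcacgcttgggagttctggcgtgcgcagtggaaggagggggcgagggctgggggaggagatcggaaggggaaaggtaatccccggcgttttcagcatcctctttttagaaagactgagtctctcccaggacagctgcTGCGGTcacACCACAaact
A match describes these letters only. No binding was measured in these libraries.

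Of the ephrins, EFNA1 and EFNB1 rose and the other 5 were not called. EFNB1, a transmembrane ligand of EphB receptors (ENSG00000090776, chrX:68829021-68842160, plus strand), had a lowest, median and highest CPM of 26.3, 29.1 and 33.7 in shNC and 34.5, 39.8 and 42.0 in sh1. Every sh1 library was above every shNC library. The log2 fold change of EFNB1 was 0.42 (SE 0.072, adjusted p = 0.00035). EFNA1, a glycolipid-anchored ligand of EPHA2 (ENSG00000169242, chr1:155127876-155134899, plus strand), was low, at 0.480, 0.740 and 1.13 CPM in shNC and 1.22, 1.66 and 2.39 CPM in sh1. Its groups did not overlap, although each library held only 8 to 39 counts. EFNA1 had a log2 fold change of 1.19 (SE 0.24, adjusted p = 0.0014), which was 0.37 with limma on log2(FPKM + 1), a scale that understates the change of low genes. EFNB2, the ligand of EphB4 in vessels and bone, had a log2 fold change of 0.08 (adjusted p = 0.46), and EFNA5 one of 0.05 (adjusted p = 0.69). EFNB3 was not called (-0.26, adjusted p = 0.11) except without shNC replicate 1, at -0.32. EFNA1, EFNA3 and EFNA4 lie side by side on chromosome 1 with no other coding gene between them, and EFNA3 (log2 fold change -0.52, SE 0.26, adjusted p = 0.16) and EFNA4 (0.15, adjusted p = 0.50) were not called. Ephrins summed to 31.5 ± 2.97 FPKM in shNC and 35.5 ± 1.28 in sh1, and the EFNB1 share of that sum was 28.0% ± 1.92 and 33.4% ± 1.47, without overlap.

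Of the 7 Eph receptors tested, EPHA2, EPHB2 and EPHB3 rose and EPHA4 and EPHB1 fell. EPHB2, a receptor of ephrin-B ligands (ENSG00000133216, chr1:22710839-22921500, plus strand), had 102, 110 and 127 CPM in shNC and 116, 143 and 175 in sh1. The lowest sh1 library, replicate 3, lay within the shNC range and the other 5 lay above it. The log2 fold change of EPHB2 was 0.40 (SE 0.081, adjusted p = 0.0015). EPHB1, which also binds ephrin-B (ENSG00000154928, chr3:134795260-135260467, plus strand), went the other way, with 11.9, 12.4 and 16.3 CPM in shNC and 8.85, 10.3 and 10.96 in sh1. Its groups did not overlap, and it fell by 0.37 (SE 0.092, adjusted p = 0.0067). EPHA4, which binds both ephrin classes (ENSG00000116106), had 8.61, 10.1 and 11.6 CPM in shNC and 6.56, 7.34 and 8.75 in sh1. Its groups overlapped only between the lowest shNC and the highest sh1 library, and it fell by 0.44 (SE 0.095, adjusted p = 0.0024). EPHB2 made up 52.6% ± 1.89 of the summed EphB FPKM in shNC and 60.3% ± 2.14 in sh1, with ranges of 50.4% to 55.4% and 56.8% to 62.8%. The EPHB2 to EPHB1 ratio in FPKM was 4.80 ± 0.684 in shNC and 8.12 ± 1.42 in sh1 (SD, n = 6), a pair chosen with both values known.

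EPHA2 (ENSG00000142627, chr1:16124337-16156069, minus strand) had 337, 418 and 557 CPM in shNC and 456, 502 and 598 in sh1. The groups overlapped only through shNC replicate 4, which lay above 4 of the 6 sh1 libraries, while the other shNC libraries lay below every sh1 library. EPHA2 overlaps EPHA2-AS1 on the opposite strand. The log2 fold change of EPHA2 was 0.28 (SE 0.097, adjusted p = 0.043), and the call was lost without shNC replicate 1, 2, 5 or 6 or sh1 replicate 1, 2, 4 or 5, at log2 fold changes of 0.22 to 0.30. EPHB3 was low, at 19 to 36 counts per library, with a log2 fold change of 0.45 (adjusted p = 0.049). Its call was lost without shNC replicate 1, 2, 3 or 5 or sh1 replicate 1, 4, 5 or 6, at 0.40 to 0.47. EPHB4, the partner of EFNB2, had a mean of 5.199 FPKM in shNC and 5.10 in sh1, and its log2 fold change was -0.04 (SE 0.081, adjusted p = 0.76). EPHB6, a receptor without kinase activity, was not called either (0.24, adjusted p = 0.38). The Eph family summed to 120 ± 20.7 FPKM in shNC and 145 ± 15.6 in sh1, of which EPHA2 made up 84.6% and 85.8%.

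The secreted class 3 semaphorins split by gene: SEMA3C and SEMA3F rose, and SEMA3A and SEMA3D fell. SEMA3A, a repellent that binds neuropilin-1 and protects bone (ENSG00000075213, chr7:83955777-84492724, minus strand), had 24.4, 26.7 and 31.8 CPM in shNC and 15.3, 18.7 and 20.01 in sh1. It fell by 0.62 (SE 0.086, adjusted p = 4.4e-05), the smallest adjusted p among the members. Every sh1 library was below every shNC library. SEMA3D, a further class 3 ligand (ENSG00000153993, chr7:84995553-85187056, minus strand), had 7.06, 9.03 and 12.8 CPM in shNC and 4.60, 5.43 and 6.61 in sh1. It fell by 0.74 (SE 0.14, adjusted p = 0.00081), again without overlap. SEMA3C, the most abundant of the class (ENSG00000075223, chr7:80742538-80922359, minus strand), had 73.1, 78.1 and 85.7 CPM in shNC and 93.4, 97.5 and 113 in sh1. It was higher in all 6 sh1 libraries than in any shNC library, with a log2 fold change of 0.33 (SE 0.056, adjusted p = 0.0003).

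SEMA3F, which acts through neuropilin-2 (ENSG00000001617, chr3:50155045-50189075, plus strand), had 14.7, 18.8 and 21.3 CPM in shNC and 23.3, 25.7 and 27.1 in sh1. Its groups did not overlap, and its log2 fold change was 0.50 (SE 0.083, adjusted p = 0.00026). Its span overlaps the antisense gene SEMA3F-AS1, and the library kit did not mark strand, so reads from any shared exon cannot be told apart. Overlaps were taken from whole gene spans, and shared exons were not checked. The same holds for the other opposite-strand overlaps named here, and 8 of the 48 members had one with a tested gene. SEMA3B lies 78.5 kb from SEMA3F with 3 coding genes between, and had 4.62, 5.69 and 10.7 CPM in shNC and 8.15, 10.5 and 11.5 in sh1. SEMA3B was not called (log2 fold change 0.54, SE 0.20, adjusted p = 0.051). Its shNC libraries spread more than its sh1 libraries, with replicates 3 and 4 above 10 CPM and the other 4 below 6, and without either of those replicates SEMA3B was called at log2 fold changes of 0.71 and 0.70. It was also called without sh1 replicate 3 or 4, at 0.59 and 0.60. The neighbouring SEMA3A and SEMA3D on chromosome 7 lie 503 kb apart with no coding gene between them, whereas SEMA3C, on the same arm, lies beyond SEMA3E. The SEMA3A to SEMA3C ratio in FPKM was 0.235 ± 0.012 in shNC and 0.122 ± 0.0096 in sh1 (SD, n = 6), with ranges of 0.223 to 0.253 and 0.1096 to 0.133, and this pair too was chosen with its values known. The class summed to 21.5 ± 0.834 FPKM in shNC and 25.6 ± 1.58 in sh1, so its total went with SEMA3C, which made up 58.1% and 62.1% of it.

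Of the 10 membrane-bound semaphorins, SEMA4B, SEMA4D and SEMA6C rose, SEMA5A fell and 6 were not called. SEMA4B, a transmembrane semaphorin (ENSG00000185033, chr15:90160604-90229679, plus strand), had 41.3, 52.5 and 73.0 CPM in shNC and 81.3, 87.1 and 99.2 in sh1. The groups did not overlap, and the shNC libraries were the more spread. The log2 fold change of SEMA4B was 0.69 (SE 0.12, adjusted p = 0.00036). SEMA4D, the plexin-B1 ligand made by osteoclasts (ENSG00000187764), had 34.4, 38.3 and 42.9 CPM in shNC and 42.9, 47.1 and 47.8 in sh1. The highest shNC library lay marginally above the lowest sh1 library. The log2 fold change of SEMA4D was 0.28 (SE 0.060, adjusted p = 0.0024). SEMA7A, which binds integrins and plexin-C1 (ENSG00000138623), had 163, 179 and 205 CPM in shNC and 181, 198 and 238 in sh1. It overlapped and was not called (0.17, SE 0.072, adjusted p = 0.088), although it was called without shNC replicate 4 or 6 or sh1 replicate 6, at 0.21 to 0.22. SEMA5A, which has thrombospondin repeats, fell by 0.46 (SE 0.13, adjusted p = 0.013). SEMA6C, with 24 to 61 counts per library, rose by 0.53 (SE 0.19, adjusted p = 0.043). Its call was lost without shNC replicate 1, 2, 5 or 6 or sh1 replicate 1, 4 or 5, at 0.40 to 0.56.

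Of the 7 plexins, the receptors of semaphorins, PLXNA3, PLXNB1, PLXNB2 and PLXND1 rose and PLXNA4 fell. PLXND1, a vascular plexin for SEMA3E and SEMA3C (ENSG00000004399, chr3:129555214-129606676, minus strand), had 38.6, 46.3 and 48.7 CPM in shNC and 57.1, 61.7 and 69.5 in sh1. Its groups did not overlap, and its log2 fold change was 0.48 (SE 0.069, adjusted p = 7.4e-05). PLXNA4, a partner of neuropilin-1 for SEMA3A (ENSG00000221866, chr7:132123340-132648688, minus strand), had 45.4, 50.5 and 55.8 CPM in shNC and 35.6, 37.7 and 41.4 in sh1. Every sh1 library lay below every shNC library, and PLXNA4 fell by 0.40 (SE 0.062, adjusted p = 0.00012). PLXNA4 over PLXND1 in FPKM was 0.672 ± 0.065 in shNC and 0.364 ± 0.027 in sh1 (SD, n = 6), a pair also chosen with its values known.

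Both B plexins rose, with overlapping groups. PLXNB1, the SEMA4D receptor (ENSG00000164050), had 21.0, 29.1 and 37.1 CPM in shNC and 35.5, 40.0 and 51.4 in sh1. One shNC library, replicate 4, lay within the sh1 range, and the log2 fold change was 0.49 (SE 0.12, adjusted p = 0.0056). PLXNB2, which binds class 4 semaphorins (ENSG00000196576), had 271, 304 and 385 CPM in shNC and 327, 378 and 483 in sh1. Its log2 fold change was 0.30 (SE 0.094, adjusted p = 0.024), and the call was lost without shNC replicate 1, 2 or 5 or sh1 replicate 1, at 0.24 to 0.28. PLXNA3, which overlaps LAGE3 on the opposite strand, rose by 0.26 (SE 0.083, adjusted p = 0.025), and its call was lost without shNC replicate 1 or 5 or sh1 replicate 1, at 0.21 to 0.24. PLXNA1 (0.16, adjusted p = 0.18) and PLXNA2 (-0.13, adjusted p = 0.19) were not called, although PLXNA1 was called without shNC replicate 4, at 0.25. The plexins summed to 98.5 ± 13.4 FPKM in shNC and 116 ± 13.1 in sh1, with overlap.

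**Figure D3:**
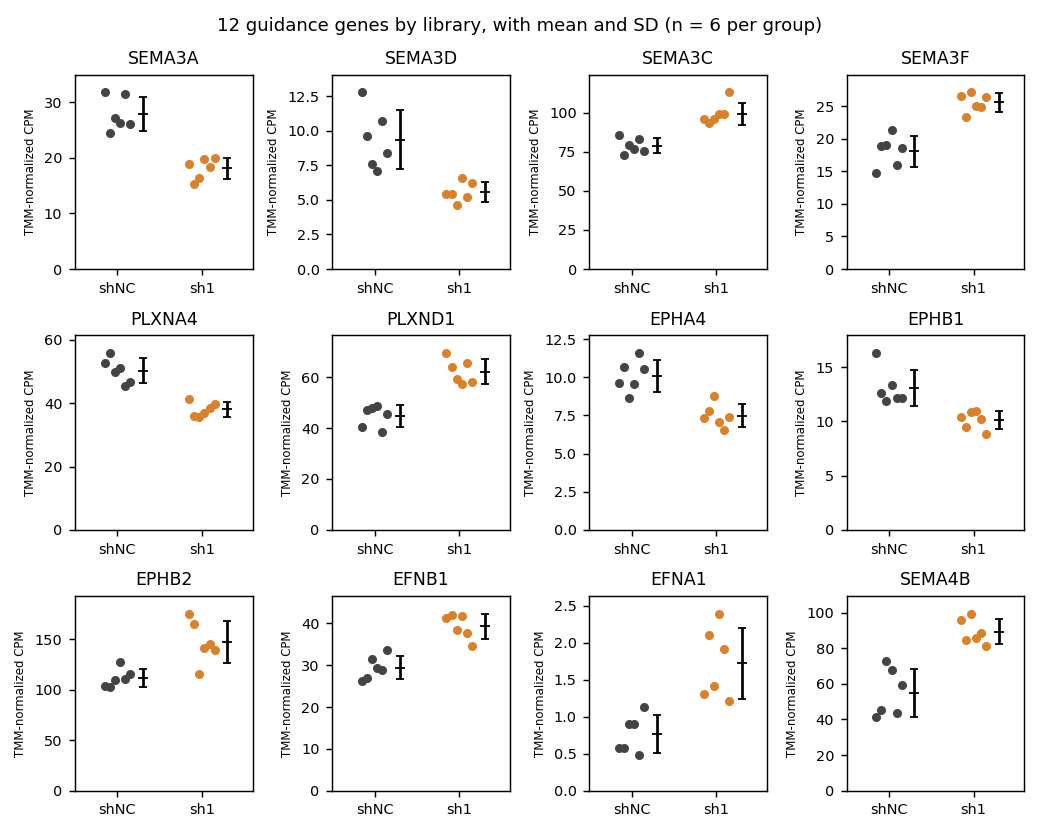
TMM-normalized CPM of 12 guidance genes in each library (shNC dark, sh1 orange), with the mean and SD of the 6 libraries of a group beside the points and axes that start at 0. SEMA3A, SEMA3D, PLXNA4 and EPHB1 are lower in all 6 sh1 libraries than in any shNC library, while SEMA3C, SEMA3F, PLXND1, EFNB1, EFNA1 and SEMA4B are higher and EPHA4 and EPHB2 overlap.

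Among the slit, ROBO, netrin and UNC5 members, ROBO1, NTN4 and UNC5B rose and none of those tested was called lower. ROBO1, the main slit receptor here at 6.31 ± 0.279 FPKM in shNC and 7.12 ± 0.257 in sh1 (ENSG00000169855), had 63.4, 68.8 and 75.1 CPM in shNC and 73.6, 76.2 and 81.1 in sh1. The groups overlapped, and its log2 fold change was 0.16 (SE 0.050, adjusted p = 0.027), with the call lost without shNC replicate 2 or 6, at 0.14 and 0.15. SLIT2, its ligand (ENSG00000145147), was low, at 2.14, 2.81 and 3.02 CPM in shNC and 2.53, 3.41 and 3.82 in sh1, and was not called (0.22, SE 0.14, adjusted p = 0.26). NTN4, a netrin of basement membranes (ENSG00000074527), had 27.1, 28.8 and 30.1 CPM in shNC and 30.5, 33.2 and 36.9 in sh1. Its groups were separate by a narrow margin, and its log2 fold change was 0.22 (SE 0.061, adjusted p = 0.014). NTN1, the classical axon attractant, was at about 0.1 FPKM in both groups and was not called (0.12, SE 0.33, adjusted p = 0.82). UNC5B, a netrin receptor that mediates repulsion (ENSG00000107731), had 4.32, 7.88 and 12.9 CPM in shNC and 9.61, 11.3 and 13.3 in sh1. For UNC5B, shNC replicates 3 and 4 lay within the sh1 range and the other 4 below it. Its log2 fold change was 0.51 (SE 0.18) and its adjusted p of 0.04997 was just inside the threshold, with the call lost without shNC replicate 1, 2, 5 or 6 or sh1 replicate 1, 2, 3, 5 or 6, at 0.38 to 0.53. UNC5C (0.60, SE 0.24, adjusted p = 0.069) and ROBO2 (-0.44, SE 0.20, adjusted p = 0.11) were not called, although UNC5C was called without sh1 replicate 2, at 0.76.

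Other receptors and ligands of the same pathways are not members, and of 31 such genes 18 were tested, with 3 higher (16.7%, against 12.8% of all tested genes), 5 lower (27.8%, against 13.3%) and a median log2 fold change of 0.02. NRP1, the neuropilin that binds SEMA3A, was the most abundant of them by far, at 59.1 ± 5.204 FPKM in shNC and 46.7 ± 2.37 in sh1. It had 601, 689 and 762 CPM in shNC and 503, 540 and 577 in sh1, so its groups did not overlap, and it fell by 0.35 (SE 0.056, adjusted p = 0.00017). NRP2, the SEMA3F receptor, had 79.4, 83.6 and 110 CPM in shNC and 93.3, 108 and 115 in sh1 and was not called (0.22, SE 0.088, adjusted p = 0.078), although it was called without shNC replicate 3 or 4 or sh1 replicate 3, at 0.26 to 0.29. The netrin receptors DCC and NEO1 moved in opposite directions. DCC, the attractive receptor, had 9.54, 10.6 and 12.7 CPM in shNC and 6.00, 6.85 and 7.91 in sh1, and fell by 0.62 (SE 0.096, adjusted p = 0.00012). NEO1, which encodes neogenin, had 32.3, 33.1 and 39.7 CPM in shNC and 41.1, 44.5 and 49.2 in sh1, and rose by 0.39 (SE 0.063, adjusted p = 0.00019). Neither gene's groups overlapped.

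In the same list, NTNG1, a membrane-anchored netrin, fell by 0.61 (adjusted p = 6.3e-05), while NTNG2 (0.37, adjusted p = 0.049) and the SEMA7A receptor PLXNC1 (0.36, adjusted p = 0.019) rose. FLRT3, which binds UNC5 receptors, fell by 1.24 (SE 0.18, adjusted p = 5.8e-05), from 3.04, 4.35 and 4.98 CPM in shNC to 1.21, 1.70 and 2.47 in sh1. UNC5D, a low netrin receptor named after its values were seen, fell by 1.06 (SE 0.26, adjusted p = 0.0061), from 1.42, 1.53 and 1.95 CPM in shNC to 0.203, 0.786 and 1.24 in sh1, without overlap. FLRT3 overlaps MACROD2 on the opposite strand by gene span, and whether the pair shares exons was not checked. The NTNG2 call was lost without sh1 replicate 1, 2, 3, 5 or 6 or without shNC replicate 1, 2, 3, 4 or 5, at log2 fold changes of 0.32 to 0.40. It was also lost with DESeq2, with no filter on low counts and with the replicate block.

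Of 51 cytoplasmic partners that act below these receptors, 46 were tested, and 9 rose (19.6%, against 12.8% of all tested genes), 3 fell (6.52%, against 13.3%) and 34 were not called, with a median log2 fold change of 0.06. ENAH, an actin regulator used by ROBO and DCC signalling, had 115, 131 and 140 CPM in shNC and 166, 202 and 214 in sh1, with a log2 fold change of 0.61 (SE 0.063, adjusted p = 2.3e-06). KALRN, a guanine nucleotide exchange factor, had 3.36, 4.03 and 4.55 CPM in shNC and 5.81, 6.10 and 7.29 in sh1 (0.65, SE 0.11, adjusted p = 0.00022). FARP1, an exchange factor linked to plexins, rose by 0.34 (SE 0.050, adjusted p = 8.1e-05), and it overlaps STK24 on the opposite strand. The groups of these genes did not overlap. SRGAP1, a GTPase-activating protein bound by ROBO1, had 140, 151 and 153 CPM in shNC and 103, 108 and 127 in sh1 and fell by 0.43 (SE 0.051, adjusted p = 8.5e-06). DPYSL2, the collapsin response mediator that acts below SEMA3A, had 107, 113 and 136 CPM in shNC and 78.4, 89.9 and 95.5 in sh1 and fell by 0.40 (SE 0.066, adjusted p = 0.00026), and it overlaps PNMA2 on the opposite strand. SDCBP, which encodes syntenin and binds ephrin-B tails, fell by 0.17 (SE 0.049, adjusted p = 0.014), and its call was lost without shNC replicate 2 or 5, at -0.14 and -0.15.

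**Figure D4:**
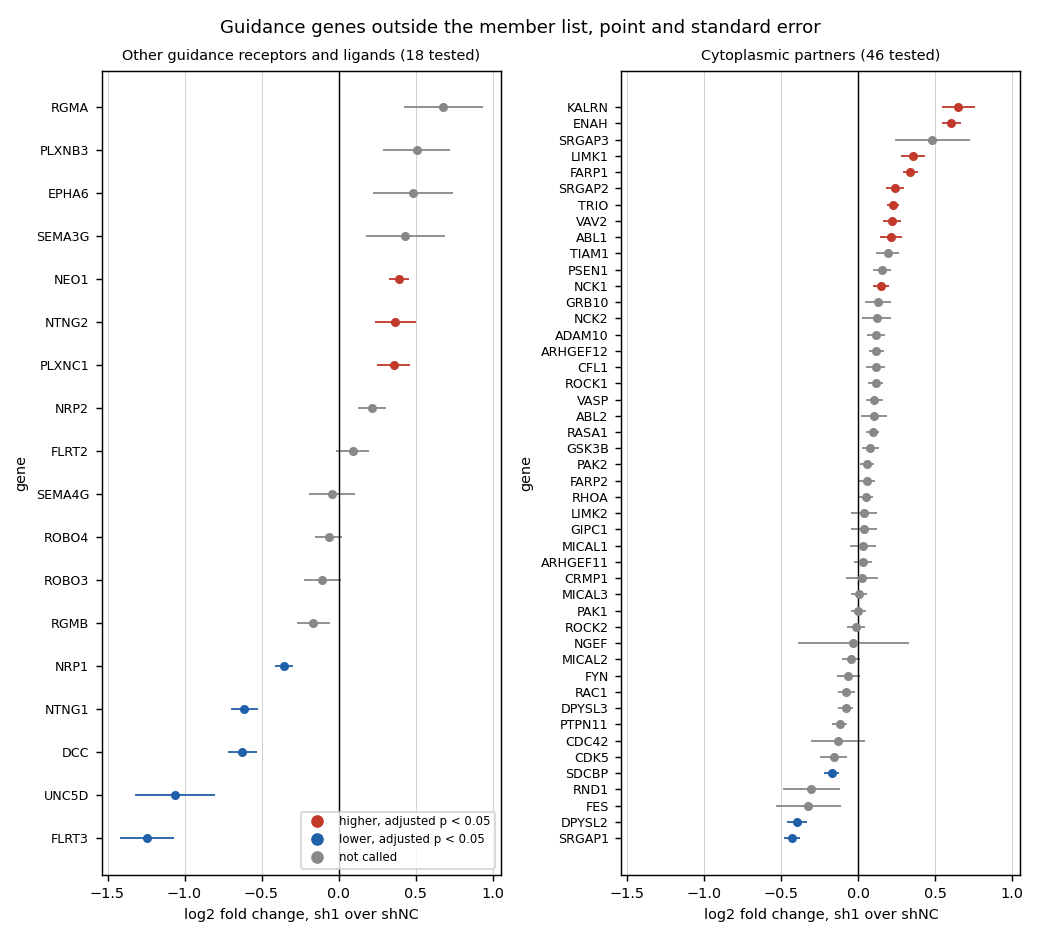
Log2 fold change of sh1 over shNC with its standard error for 18 guidance receptors and ligands outside the member list (left) and 46 cytoplasmic partners (right), coloured by the edgeR call at an adjusted p of 0.05. FLRT3 and UNC5D lie furthest left, DCC and NEO1 lie on opposite sides of 0, and 34 of the 46 cytoplasmic partners were not called.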

How the data were processed

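RNA-seq of 12 SJSA-1 libraries was used, 6 shNC and 6 sh1, grouped by their labels. The authors prepared unstranded poly(A) libraries, mapped the reads with HISAT2 to GRCh38 (release 87) and counted them with featureCounts; the deposited values are raw gene counts and FPKM (counts scaled by gene length and library total). All columns were mapped to a sample. Of 59248 rows, 572 carry no Ensembl identifier, and they were kept in the totals and the fit but not reported. Genes passing edgeR's filterByExpr (16489) were tested on the deposited counts with edgeR 4.0.16 in R 4.3.3 (TMM, quasi-likelihood test, Benjamini-Hochberg adjustment over all tested genes, call at adjusted p under 0.05). CPM are TMM-normalized, and fold changes are sh1 over shNC. Total counts of 11239638 to 19992974 set the precision of low genes. Coordinates are from GENCODE 44 and promoters from RefSeq, both on GRCh38.

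Named genes were the 14 members with the smallest p among those called, any called at 2-fold or more, the most abundant of each family, and for pathway lists up to 3 per direction. The members and all lists were chosen with earlier results of these data known. Scripts were tested on simulated data. Alternatives were RLE scaling, library totals, no filter, at least 10 counts in every library, DESeq2 1.42.0, limma 3.58.1 on log2(FPKM + 1) and log2(FPKM + 0.1), a replicate block, and leaving out each library.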

Additional observations from a re-analysis of the deposited data

Results flagged for a closer look

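In 100 checks of groups of 6 libraries, 11 single libraries stood apart from the other 5 of their group by Dixon's test at the 95% level. For independent checks, chance gives about 1 in 20 groups, or 5. The checks were not independent, because genes share libraries and the sums contain genes that were also checked. The 11 therefore cannot be weighed against 5. In shNC replicate 1, CPM was 16.3 for EPHB1 (11.9 to 13.4 in the other shNC libraries), 12.7 for DCC (9.54 to 10.7), 39.7 for NEO1 (32.3 to 33.3) and 136 for DPYSL2 (107 to 117). In shNC replicate 4, SLIT2 was at 2.14 CPM (2.76 to 3.02 in the others). In sh1 replicate 1, CPM was 51.4 for PLXNB1 (35.5 to 40.4) and 3.46 for NTNG2 (2.57 to 2.84). In sh1 replicate 3, SRGAP1 was at 127 CPM (103 to 111). In sh1 replicate 6, SEMA3C was at 113 CPM (93.4 to 99.3), the class 3 semaphorins summed to 28.6 FPKM (24.0 to 25.5) and the ephrins to 33.0 FPKM (35.4 to 36.6).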

How the results depend on the processing

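The 6 members that fell were 6 under every alternative scaling, filter and tool and 6 to 7 with a library left out. The 17 that rose were 18 with RLE scaling, 17 with DESeq2, 16 with library totals, 15 with either other filter, 13 with limma on FPKM at either pseudocount and 11 to 20 with a library left out. Same-numbered libraries did not deviate together (correlations from -0.16 to 0.033), and the labels do not say what they share besides a number. With the replicate block, 10 members were called higher and 6 lower. With that block, all genes called numbered 1680 higher and 1701 lower, against 2108 and 2194. Of the 23 called members, 16 kept the call under every alternative that tested them (20, or 19 for EFNA1, which was not tested with at least 10 counts in every library) and none of the 23 changed direction. EFNA1 moved from 1.19 to 0.37 with limma on log2(FPKM + 1), below SEMA4B at 0.67. The calls of EPHA2, PLXNA3, SEMA6C and UNC5B were also lost with limma on FPKM, those of EPHB3, SEMA6C and ROBO1 with no filter, that of EPHB3 with DESeq2 and that of UNC5B with library totals or at least 10 counts in every library. SEMA3B gained a call with RLE scaling, DESeq2 and no filter. The cause was not tested. Uncalled fold changes near 0 changed sign as some single libraries were left out. Across all alternatives, log2 fold changes ran from -0.083 to 0.010 for EPHB4 and from -0.12 to 0.013 for SEMA4C. They ran from -0.13 to 0.052 for SEMA6B and from -0.090 to 0.37 for NTN1. All genes called higher numbered 1821 to 2438 and lower 1650 to 2208 without one library. Depth limits the low members, among them the called EFNA1 (8 to 39 counts per library), EPHB3 (19 to 36) and SEMA6C (24 to 61). NTN1, UNC5C, EFNA3, ROBO2, SEMA6D, SLIT2 and the 5 untested genes also rest on few counts per library.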
